A study of Mus musculus with 6 samples.

Results

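A total of 54 genes for RNA-binding proteins that steer pre-mRNA splicing were followed from ESCs to EpiLCs, out of 24736 genes in the data. They were picked out by gene symbol, as the SR proteins (11 Srsf genes), the hnRNPs (21 Hnrnp genes, including the pseudogene Hnrnpa1l2-ps2) and 22 genes of the Esrp, Rbfox, Celf, Nova, Mbnl, Ptbp and Khdrbs families. SR proteins carry RNA recognition motifs and a domain rich in arginine and serine, bind exonic enhancers and mostly favour inclusion of the exon they sit on. Many hnRNPs coat nascent transcripts and often act against exon inclusion. Members of the other families are more restricted in where they act: ESRPs set epithelial splicing, NOVA, RBFOX and several CELF proteins act in neurons or muscle, MBNL proteins oppose CELF proteins during muscle maturation and shift ESC splicing towards differentiated patterns, and PTBP1 represses neuronal exons.

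The ESCs and EpiLCs were wild type and came from 1 XY mouse line, HM1 TetON, from which the study derived all its lines. ESCs were taken at 0 h and were grown on feeder fibroblasts, with 10% serum and 1000 U/ml LIF, the cytokine that holds ESCs undifferentiated. EpiLCs, which resemble the epiblast after implantation, were taken at 48 h from N2/B27 medium with 10 ng/ml bFGF and the inhibitor of WNT secretion LGK974 at 5 µM. The time is that of the labels and of the study's results, whereas its culture methods give a longer time for EpiLCs. Each group had 3 libraries of polyadenylated RNA, labelled as biological replicates. The study's methods state, for its analyses in general, that data came from independent experiments. The tests measure the spread between these libraries.

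The libraries held between 16967741 and 35096210 expected counts, reads assigned to genes by RSEM, and 3 counts corresponded to 0.0855 to 0.177 CPM, that is, counts scaled to library size. Levels are given as TPM, which scale transcripts for length and library, and changes as the log2 fold change of EpiLC over ESC with its standard error (SE). All 10 markers of naive pluripotency were lower and all 9 EpiLC markers higher in EpiLCs. The summed level of 16 fibroblast markers was 1117, 3166 and 454 TPM in ESC replicates 1, 2 and 3, and 246 to 340 TPM in EpiLCs, with 10 of the 15 tested called lower. None of the 16 was at 0 in ESC replicates 1 and 2, and Lum was at 0 in ESC replicate 3. Mesoderm and muscle markers summed to 299, 112 and 78.0 TPM in ESC replicates 1, 2 and 3 and to 9.58 to 42.6 TPM in EpiLCs (3 of 7 tested lower, 1 higher). The 1 higher, Myod1, had enough counts to test only through EpiLCs, and Mesp1 and Msgn1, both lower, only through ESCs. The directions of these calls were thus fixed beforehand. Primitive endoderm markers summed to 119, 131 and 61.3 TPM in ESCs and to 37.4 to 49.5 TPM in EpiLCs (5 of 8 lower, 0 higher). The part of these cell types in the members' values was not tested.

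Splicing regulators were higher in EpiLCs far more often than lower. Of the 52 members with enough counts to test, 25 (48.1%) were higher and 1, Ptbp3, was lower at an adjusted p of at most 0.05, and 26 were not called. Among all 14468 genes tested, 22.6% were higher and 22.8% lower, or 45.4% in either direction. The median log2 fold change of the members was 0.19, against -0.0017 over all genes, and 39 of the 52 had a value above 0. Large changes were fewer: 6 members (11.5%) had a called change above 1 on the log2 scale, all of them higher, whereas 20.2% of all genes passed this limit in either direction and 8.78% did so upwards. The count was 3 with a filter of 10 counts in every library and 3 with limma on log2 TPM with a pseudocount of 1. The stricter filter removes Celf3, Rbfox1 and Rbfox3. Celf3 and Rbfox1 passed the main filter through their EpiLC counts, so a call of either could only be upwards. In TPM, the 3 EpiLC libraries lay above the 3 ESC libraries without overlap for 32 of the 52 members, compared with 33.8% of all genes. The reverse held only for Nova2, compared with 25.6% of all genes. In RNA from a whole culture, a change in the share of cells that express a gene and a change in RNA per cell cannot be told apart.

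**Figure D1:**
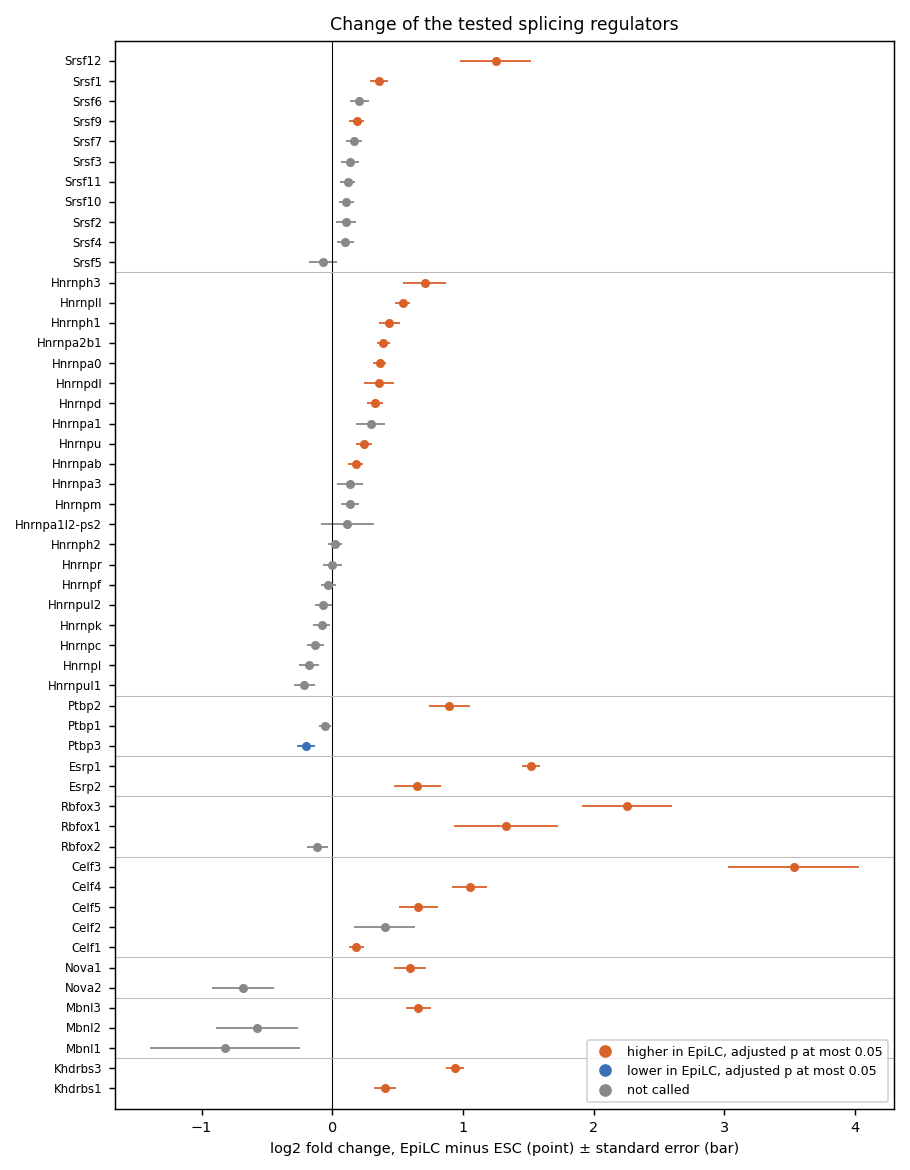
The log2 fold change of EpiLC over ESC (horizontal axis, point) with its standard error (bar) for each of the 52 tested members, grouped by family, with called members in colour. The SR proteins and hnRNPs stand within 1 unit of 0 apart from Srsf12 at 1.25, and the values of the Celf and Rbfox families reach furthest, to 3.53 and 2.26.

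Of the 25 members called higher, 18 were called in each of the 6 fits that left out 1 library. The same share among all genes is not given here, so this one is not read as particular to the members. The calls of Celf1, Esrp2, Hnrnpab, Hnrnpdl, Hnrnpu, Rbfox1 and Srsf9 were lost in at least 1 of these 6 fits, as given with each gene. Each of these fits has fewer libraries to test, so a lost call does not by itself point to the library left out. Transcripts of all members together made up 1.29% ± 0.0309 (SD, n = 3) of the TPM in ESCs and 1.48% ± 0.0539 in EpiLCs.

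Of 11 SR proteins, 3 (27.3%) were called higher, 0 lower and 8 in neither direction, a share near the 22.6% of all genes called higher, and their median log2 fold change was 0.14. Their summed level was 3124 ± 166 TPM in ESCs and 3536 ± 159 TPM in EpiLCs. Srsf1, which encodes a founding SR protein acting in both constitutive and alternative splicing, stood at 291, 310 and 280 TPM in ESCs and at 382, 370 and 415 TPM in EpiLCs. All EpiLC libraries were above all ESC libraries, a log2 fold change of 0.35 ± 0.07 (SE, adjusted p = 0.00632). Srsf12, whose product is known as an antagonist of other SR proteins, had the largest change of the family, from 0.81, 1.33 and 0.70 TPM to 2.42, 2.28 and 2.33 TPM. Its log2 fold change was 1.25 ± 0.27 (adjusted p = 0.0101), at 26 to 32 counts per ESC library. Srsf9 measured 160, 153 and 153 TPM in ESCs and 178, 183 and 190 TPM in EpiLCs, a log2 fold change of 0.19 ± 0.06 (adjusted p = 0.0400). The groups did not overlap, but the call was lost without any 1 of the 6 libraries (log2 fold change 0.16 to 0.21, adjusted p up to 0.113). A block for the replicate number also ended the call.

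The most abundant SR transcript, Srsf2, was measured at 662, 709 and 598 TPM in ESCs and 740, 694 and 761 TPM in EpiLCs. Its groups overlapped, and its log2 fold change of 0.11 ± 0.08 was not called (adjusted p = 0.287). Srsf3, Srsf4, Srsf6, Srsf7, Srsf10 and Srsf11 had values between 0.10 and 0.21 and separate groups in TPM, but none was called. Srsf6 was nearest, at 0.21 ± 0.07 (adjusted p = 0.0552), and was called without ESC replicate 2 (0.26) or without EpiLC replicate 2 (0.26). It was also called with DESeq2, with upper-quartile normalization, with no filter and with limma at both pseudocounts (adjusted p = 0.0196 to 0.0484). Srsf7 was called with DESeq2 and with limma at both pseudocounts, and Srsf3 and Srsf11 with limma at both. Srsf5 stood at -0.07 ± 0.11, with overlapping groups.

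Among the hnRNPs, 9 of 21 members (42.9%) were called higher and 0 lower, against 22.6% and 22.8% of all genes, again with a median log2 fold change of 0.14. Their summed level was 8709 ± 281 TPM in ESCs and 9904 ± 368 TPM in EpiLCs, more than the summed SR level in both groups. No hnRNP passed 1 on the log2 scale, where 20.2% of all genes did. Most hnRNPs had a mean of at least 100 TPM, and 5.68% of all genes at that level passed this limit. By subgroup, the called members were 3 of 6 in A/B, both of D, 2 of 4 in F/H, 1 of 2 in L and 1 of 3 in U, whereas the single members C, K, M and R were not called. Hnrnpm (0.14 ± 0.07, adjusted p = 0.144) was called with limma at both pseudocounts (0.19).

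The largest rise was that of Hnrnph3, a member of the F/H group whose proteins bind runs of guanines. Its levels were 92.0, 62.2 and 77.7 TPM in ESCs and 125, 115 and 152 TPM in EpiLCs (log2 fold change 0.71 ± 0.17, adjusted p = 0.0131). Hnrnpll, whose product directs exon skipping of Ptprc in activated T cells, followed at 95.7, 87.2 and 90.4 TPM against 140, 135 and 137 TPM (0.54 ± 0.06, adjusted p = 0.000612). The libraries of each group lay close together for Hnrnpll and further apart for Hnrnph3, and neither gene's groups overlapped.

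Hnrnph1, a paralog of Hnrnph3, measured 353, 358 and 301 TPM in ESCs and 472, 449 and 496 TPM in EpiLCs (0.44 ± 0.08, adjusted p = 0.00518). Hnrnpa2b1, which encodes a core component of hnRNP particles, was among the most abundant members, at 900, 891 and 887 TPM against 1197, 1193 and 1238 TPM (0.39 ± 0.05, adjusted p = 0.00101). Hnrnpa0 had 242, 245 and 243 TPM against 329, 317 and 327 TPM (0.36 ± 0.05, adjusted p = 0.00171). All 3 genes were called with any 1 library left out. Hnrnpd, for the AU-rich element binding protein AUF1, was also higher (0.33 ± 0.06, adjusted p = 0.00538).

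Smaller or less steady rises were found for 3 other hnRNPs. Hnrnpdl, a paralog of Hnrnpd, changed by 0.36 ± 0.12 (adjusted p = 0.0422), but was called only without ESC replicate 2 or EpiLC replicate 2 among the 6 fits that left out a library (0.27 to 0.46 over these fits). Its call was also lost in edgeR with the replicate block (adjusted p = 0.0724). Hnrnpu, for a scaffold attachment protein, changed by 0.24 ± 0.06 (adjusted p = 0.0175) and lost its call without EpiLC replicate 1 (0.26, adjusted p = 0.0544). Hnrnpab had the highest mean level of all members over the 6 libraries, although Hnrnpf was above it in each ESC library. Hnrnpab stood at 1177, 1128 and 1072 TPM in ESCs and 1340, 1273 and 1350 TPM in EpiLCs. Its change of 0.18 ± 0.06 (adjusted p = 0.0366) was called only without EpiLC replicate 2 among those fits (0.16 to 0.22, adjusted p up to 0.130). The replicate block in edgeR ended this call too (adjusted p = 0.0591).

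A further 12 hnRNPs were not called, with log2 fold changes between -0.21 and 0.29. They included Hnrnpf, with means of 1188 ± 51.0 (ESC) and 1204 ± 28.1 TPM (EpiLC), and Hnrnpk, with 959 ± 54.1 and 941 ± 35.7 TPM. Hnrnpl, the paralog of Hnrnpll, stood at -0.17 ± 0.08 (adjusted p = 0.104) and Hnrnpul1 at -0.21 ± 0.08 (adjusted p = 0.0704). Both were called lower once ESC replicate 2 was left out, at -0.24 and -0.28, and Hnrnpul1 also with DESeq2 (-0.22, adjusted p = 0.0403).

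Hnrnpa1, for the classical antagonist of SRSF1 at splice sites, was not called although it is abundant. Its levels were 534, 429 and 458 TPM in ESCs and 594, 530 and 638 TPM in EpiLCs, with overlapping groups and a log2 fold change of 0.29 ± 0.11 (adjusted p = 0.0682). It was called without ESC replicate 1 (0.37) or without EpiLC replicate 2 (0.38), and also with DESeq2, the replicate block and limma at both pseudocounts (adjusted p = 0.0345 to 0.0410). Hnrnpa1, Hnrnpa3 and Hnrnpa1l2-ps2 were the 3 members whose expected counts were not whole numbers, that is, with reads divided between genes. The pseudogene Hnrnpa1l2-ps2 was listed at 10.1 ± 1.48 and 11.3 ± 2.15 TPM (0.11 ± 0.20, adjusted p = 0.671), and its value is uncertain.

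The pseudogene resembles part of the gene's transcript (GENCODE vM21, GRCm38). All 963 bases of the pseudogene transcript aligned to the 1737 bases of Hnrnpa1-202 with 22 mismatches, an identity of 97.7%. Of 888 windows of 76 bases along the pseudogene, the length of a read, 154 (17.3%) occurred exactly in Hnrnpa1 transcripts, so reads from these windows could not be told apart by sequence.

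Of the 3 polypyrimidine tract binding proteins, Ptbp2 was called higher, Ptbp3 was called lower in few settings, and Ptbp1 was not called. Ptbp1, the broadly expressed repressor of neuronal exons, measured 571, 565 and 556 TPM in ESCs and 558, 555 and 573 TPM in EpiLCs. Its groups overlapped, and the log2 fold change of -0.06 ± 0.05 was not called (adjusted p = 0.364). Ptbp2, the paralog that predominates in developing neurons, measured 31.4, 21.5 and 31.1 TPM in ESCs and 55.9, 49.3 and 57.4 TPM in EpiLCs. All EpiLC libraries were above all ESC libraries (0.90 ± 0.16, adjusted p = 0.00426), and the call held with each library left out (0.74 to 0.99). Ptbp3, best known from blood cells, had 46.7, 41.6 and 44.5 TPM in ESCs and 38.6, 42.9 and 38.2 TPM in EpiLCs. It was the only member called lower (-0.20 ± 0.07, adjusted p = 0.0487). Its groups overlapped in TPM, and of the fits that left out a library only that without ESC replicate 2 called it (-0.25). Without any 1 of the other 5 libraries the value was -0.24 to -0.18 and the call was lost. It was kept with DESeq2 (-0.21, adjusted p = 0.0198) and lost in the 6 other settings with all libraries (adjusted p = 0.0560 to 0.154).

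Of the STAR family proteins, which bind motifs rich in A and U, both tested members were called higher, where 22.6% of all genes were. Khdrbs1, for the ubiquitous SAM68, measured 165, 155 and 137 TPM in ESCs and 210, 198 and 222 TPM in EpiLCs (0.41 ± 0.08, adjusted p = 0.00764). Khdrbs3, for SLM2 (also T-STAR), which is best known from brain and testis, rose alike in all libraries, from 32.8, 31.1 and 32.2 TPM to 63.6, 64.1 and 63.5 TPM. Its log2 fold change was 0.94 ± 0.07 (1.92-fold, adjusted p = 0.000156). Khdrbs2 was at 0.04, 0 and 0.03 TPM in ESCs and at 0.03 TPM in each EpiLC library, with at most 1 count, and was not tested.

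Epithelial splicing regulators were higher in EpiLCs, Esrp1 most clearly of all members by adjusted p. Esrp1 (chr4:11331933-11386783, GRCm38.p6) encodes a protein that maintains epithelial isoforms of receptors and adhesion proteins, such as the epithelial form of FGFR2. Its levels were 31.5, 30.2 and 33.8 TPM in ESCs and 96.6, 97.3 and 90.2 TPM in EpiLCs. The highest ESC library was well below the lowest EpiLC library, and the log2 fold change was 1.52 ± 0.07 (2.86-fold, adjusted p = 4.55e-05), 1.48 to 1.58 with a library left out. Esrp2, its paralog, was lower in level, at 5.19, 6.60 and 7.15 TPM against 9.43, 12.1 and 9.35 TPM. Its log2 fold change of 0.65 ± 0.18 was called (adjusted p = 0.0230), but not without ESC replicate 1 (0.51), EpiLC replicate 1 (0.71) or EpiLC replicate 2 (0.53).

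The RBFOX genes, whose proteins bind the RNA motif UGCAUG, diverged by level. Rbfox2, the form expressed in ESCs and many tissues, measured 46.8, 56.1 and 46.7 TPM in ESCs and 50.5, 46.1 and 46.8 TPM in EpiLCs. The groups overlapped (-0.11 ± 0.08, adjusted p = 0.292). Rbfox3 (chr11:118489760-118911597), the neuronal nuclear antigen NeuN, measured 0.86, 0.41 and 0.68 TPM in ESCs and 3.56, 3.34 and 3.89 TPM in EpiLCs. It rested on 9 to 33 counts per ESC library and 161 to 179 per EpiLC library, and its log2 fold change was 2.26 ± 0.34 (4.78-fold, adjusted p = 0.00243), 1.97 to 2.57 with a library left out. Rbfox1, known from neurons and muscle, had 0.45, 0.25 and 0.16 TPM against 0.68, 0.91 and 0.63 TPM, or 8 to 19 counts against 37 to 59. Its log2 fold change of 1.33 ± 0.40 was called (adjusted p = 0.0310), but of the fits that left out a library only that without ESC replicate 1 called it, and the other 5 gave 1.02 to 1.43 with adjusted p up to 0.105.

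CELF genes, whose proteins bind GU-rich RNA, were called higher in 4 of 5 tested members and lower in 0, where 22.6% and 22.8% of all genes were called. The call of Celf1, 1 of these 4, was lost in most fits that left out a library. Celf3 was tested only through its EpiLC counts and could only be called upwards. Celf3, a neuronal member, had the largest change of all 52 members, from 0.04, 0.10 and 0.19 TPM to 1.27, 1.90 and 1.01 TPM. These levels were 1, 2 and 7 counts in ESCs and 55, 79 and 44 counts in EpiLCs, so the size of the fold change rests on few ESC reads (log2 fold change 3.53 ± 0.50, adjusted p = 0.00181, 3.11 to 4.41 with a library left out). Celf4, also mainly neuronal, rose from 6.31, 7.46 and 5.67 TPM to 13.7, 15.4 and 12.6 TPM (1.05 ± 0.13, adjusted p = 0.00115). Celf5 rose from 7.36, 7.03 and 9.87 TPM to 12.8, 14.8 and 12.3 TPM (0.66 ± 0.15, adjusted p = 0.0123). For Celf4 and Celf5 the groups did not overlap and no left-out library ended the call. The same held for Celf3, but it was tested only because its EpiLC counts were high, so this adds no support.

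The ubiquitous Celf1 remained by far the most abundant of the family, at 142, 131 and 142 TPM in ESCs and 164, 160 and 169 TPM in EpiLCs. Its change of 0.18 ± 0.06 (adjusted p = 0.0410) was called only without ESC replicate 3 among the fits that left out a library (0.14 to 0.22, adjusted p up to 0.132). Celf2 measured 4.18, 5.23 and 2.71 TPM in ESCs and 5.67, 6.25 and 4.65 TPM in EpiLCs, with overlapping groups (0.40 ± 0.23, adjusted p = 0.195). Without ESC replicate 2 it was called, at 0.62. Celf6, at 0.26, 0.05 and 0.13 TPM in ESCs and 0.39, 0.10 and 0.27 TPM in EpiLCs, had too few counts to test.

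NOVA proteins, neuronal regulators that bind YCAY clusters, were low in both groups. Nova1 measured 2.08, 2.08 and 2.19 TPM in ESCs and 3.40, 3.47 and 3.10 TPM in EpiLCs (0.59 ± 0.12, adjusted p = 0.00838). Nova2 measured 2.61, 2.99 and 4.74 TPM in ESCs and 2.22, 2.19 and 2.29 TPM in EpiLCs. It was thus the 1 member with every EpiLC library below every ESC library, but its log2 fold change of -0.68 ± 0.24 fell just outside the threshold (adjusted p = 0.0506). It was called without ESC replicate 1 (-0.87) or without ESC replicate 2 (-0.78), and with DESeq2 (-0.69). Without ESC replicate 3, the highest library, it was -0.36.

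Some markers of neurons were also higher. Of 11 neural markers, 5 of the 10 tested were called higher in EpiLCs and 0 lower, against 22.6% and 22.8% of all genes. Those higher included Dcx (2.99 ± 0.55), Snap25 (2.27 ± 0.37) and Elavl3 (2.21 ± 0.19). Sox1, Map2, Syt1, Elavl4 (-0.21 ± 0.27) and Pax6 (-0.88 ± 0.31, adjusted p = 0.0544) were not called. The summed level of the 11 markers was 68.4 to 104 TPM in ESCs and 167 to 183 TPM in EpiLCs. Dcx, a defining marker of young neurons, was near 0 in both groups, at 0.0267 ± 0.0208 and 0.237 ± 0.0802 TPM. It was tested only through its EpiLC libraries and could only be called upwards, so its call adds no support to the count of 5. The part of neurons in the levels of Rbfox3, Celf3, Celf4 and Ptbp2 was not tested.

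**Figure D2:**
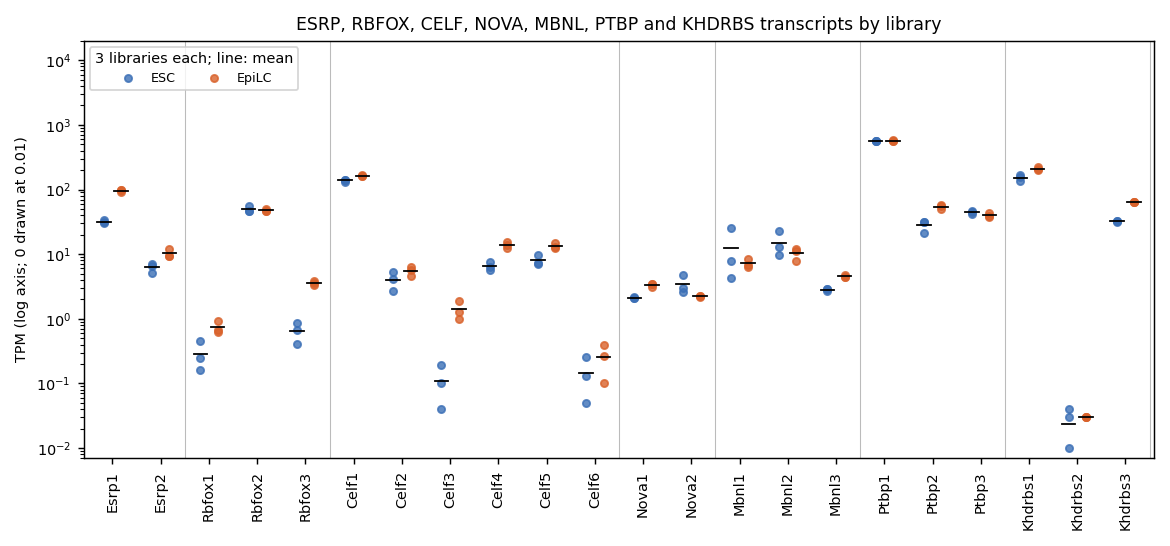
TPM (vertical log axis) of the 22 members outside the SR and hnRNP groups in each of 3 ESC and 3 EpiLC libraries (points), with the mean of each group as a line; a level of 0 is drawn at 0.01. Esrp1, Khdrbs3 and Rbfox3 show separate groups, Ptbp1 and Rbfox2 overlapping ones, and the ESC points of Mbnl1 span 4.34 to 25.4 TPM.

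MBNL genes split between a steady rise and values set by 1 library. Mbnl3, the X-linked member, measured 2.88, 2.86 and 2.65 TPM in ESCs and 4.40, 4.84 and 4.5 TPM in EpiLCs (0.66 ± 0.10, adjusted p = 0.00228). Mbnl1, the main member of adult muscle, measured 7.83, 25.4 and 4.34 TPM in ESCs and 6.80, 8.47 and 6.38 TPM in EpiLCs. Its log2 fold change of -0.82 ± 0.57 was not called (adjusted p = 0.273) and became 0.19 without ESC replicate 2. Mbnl2 had 12.7, 22.6 and 9.64 TPM against 11.2, 12.04 and 7.82 TPM (-0.57 ± 0.31, adjusted p = 0.171) and became -0.16 without that library.

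The ESC libraries stood in the same order, replicate 2 above 1 above 3, for Mbnl1, Mbnl2 and all 16 fibroblast markers. This order was found in 13 of the 52 tested members and in 26.0% of all genes tested. Of the 50 tested members with a mean of at least 1 TPM, only Mbnl1 and Mbnl2 were at least 2 times as high in ESC replicate 2 as in ESC replicate 3, and the ratio of the others lay between 0.603 and 1.93. The study's methods describe a step that lets feeder cells adhere to plastic before differentiation starts. The part of feeder fibroblasts in the Mbnl1 and Mbnl2 levels was not tested.

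**Figure D3:**
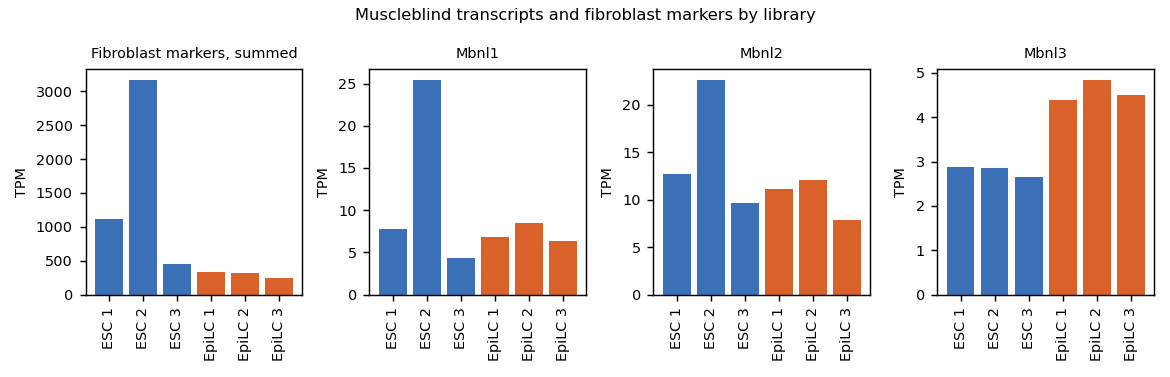
Levels in TPM (vertical axes, each from 0) of 16 fibroblast markers summed and of Mbnl1, Mbnl2 and Mbnl3, as 1 bar for each ESC library (blue) and EpiLC library (orange). ESC replicate 2 is the highest bar for the markers, Mbnl1 and Mbnl2, whereas for Mbnl3 all 3 EpiLC bars are above the ESC bars.

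The share of each paralog in its family's level changed in several families. Shares were computed from TPM in each library, and 3 against 3 libraries cannot give an exact permutation p below 0.1, so they are descriptions. Rbfox2 held 98.1% ± 0.787 (SD, n = 3) of the RBFOX level in ESCs and 91.7% ± 0.543 in EpiLCs, as Rbfox3 went from 1.31% ± 0.542 to 6.91% ± 0.590. Ptbp2 went from 4.40% ± 0.844 to 8.25% ± 0.551 of the PTBP level, and Ptbp1 from 88.6% ± 1.13 to 85.7% ± 0.132. Khdrbs3 went from 17.4% ± 1.37 to 23.3% ± 1.10. In each of these cases the 3 ESC shares and the 3 EpiLC shares did not overlap, and the family's most abundant member stayed the same.

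In the NOVA family the most abundant paralog changed. Nova1 held 44.3%, 41.0% and 31.6% in ESCs and 60.5%, 61.3% and 57.5% in EpiLCs, so Nova2 was the more abundant paralog in every ESC library and Nova1 in every EpiLC library. Their summed level was 5.56 ± 1.20 TPM in ESCs and 5.56 ± 0.146 TPM in EpiLCs. Esrp1 went from 83.5% ± 2.07 to 90.2% ± 1.15 of the ESRP level, while the family sum went from 38.2 ± 2.45 to 105 ± 5.01 TPM. Celf1 went from 88.0% ± 0.981 to 82.7% ± 1.96 of the CELF level, and Celf4 from 4.14% ± 0.720 to 7.002% ± 0.704.

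**Figure D4:**
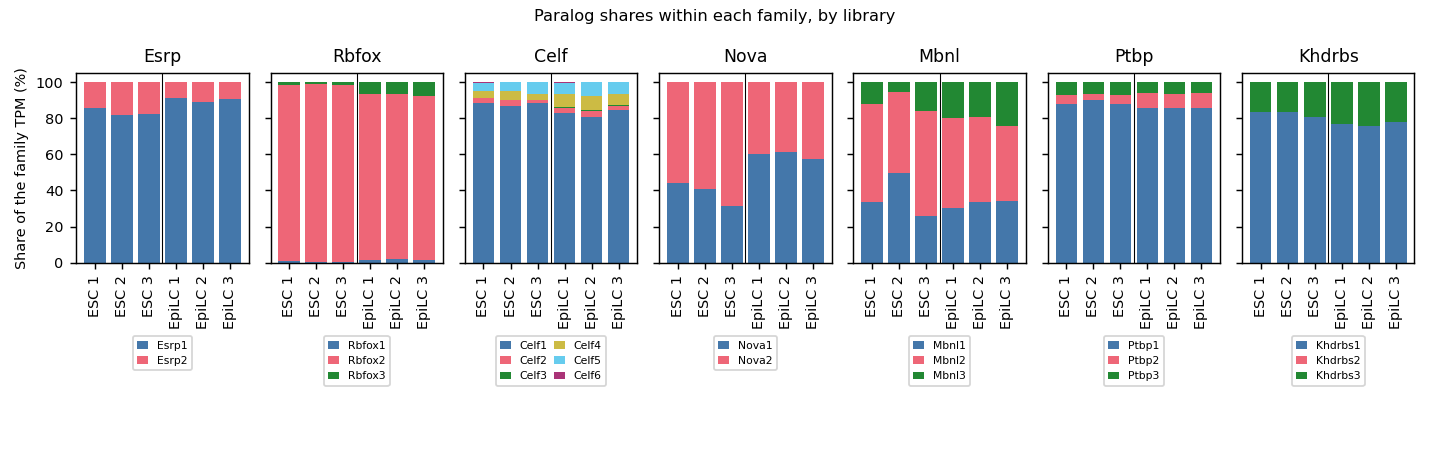
Share of each family's TPM (vertical axis, percent) held by each paralog, as 1 stacked bar for each ESC and EpiLC library, split by a line. Rbfox3, Ptbp2 and Khdrbs3 take a larger share in each EpiLC bar than in any ESC bar, and Nova1 passes Nova2.

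As among all genes, scarce members passed 1 on the log2 scale more often than abundant ones. A boundary of 100 TPM, chosen after the values were seen, put 32 members at or above it, of which 13 (40.6%) were called higher, 0 lower and 0 by more than 1 on the log2 scale. Among all 1762 genes at this level, 20.7% were called higher and 5.68% passed that limit in either direction. Below 100 TPM, 12 of the 20 tested members (60%) were called higher, 1 was lower and 6 (30.0%) passed the limit. Of all 12706 genes there, 22.8% were called higher and 22.2% passed the limit. The members' share includes Celf3 and Rbfox1, which could only be called upwards, so nothing is read from its distance to that of all genes.

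**Figure D5:**
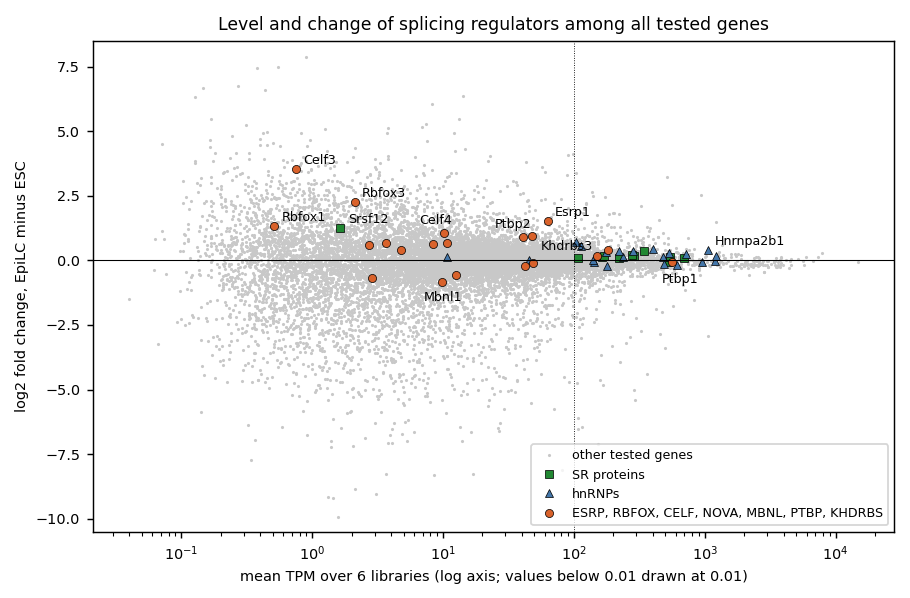
Mean TPM over the 6 libraries (horizontal log axis) against the log2 fold change of EpiLC over ESC (vertical axis) for the tested members (coloured symbols) and all other tested genes (grey). No member right of the dotted line at 100 TPM lies beyond 1 on the vertical axis, and Celf3 at 3.53 is the highest member.

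RefSeq promoters of GRCm38.p6, from 250 bases before to 50 bases after the start, were found for 45 of the 54 genes (74 promoters). The median GC content was 67.8% for 42 promoters of SR and hnRNP genes, 58.5% for 32 promoters of the other families and 52.7% for all 32851 promoters. The ratio of observed to expected CpG dinucleotides had medians of 0.965, 0.420 and 0.384. The GC box GGGCGG, on either strand, was present in 81.0%, 50% and 35.7%. The 42 promoters came from 30 genes and the 32 from 15 genes, so a gene with several annotated starts counts several times. Most of the 32 were starts of Celf genes, some of them overlapping. No promoter was found for Esrp1, Esrp2, Rbfox2, Khdrbs1, Khdrbs3, Celf4 or Ptbp3, so these values do not describe each of the other families. The CCAAT box (CCAAT) was in 45.9% of the members' promoters and 37.4% of all, the E-box CACGTG in 9.46% and 7.15%, and the TATA box TATAAA in 12.2% and 13.6%, each on either strand. The 4 motifs share no core, although copies of 1 motif may overlap each other. A match is a description of letters, not a bound site.

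Of these promoters, the 150 bases before 1 annotated start are printed for pairs of an abundant and a scarce member of the same family, Ptbp1 with Ptbp2 and Srsf1 with Srsf12. Capitals mark matches to the 4 motifs on either strand. The positions are chr10:79854282-79854431 (plus strand) for Ptbp1, chr3:119783389-119783538 (minus strand) for Ptbp2, chr11:88047223-88047372 (plus strand) for Srsf1 and chr4:33209122-33209271 (plus strand) for Srsf12:
Ptbp1: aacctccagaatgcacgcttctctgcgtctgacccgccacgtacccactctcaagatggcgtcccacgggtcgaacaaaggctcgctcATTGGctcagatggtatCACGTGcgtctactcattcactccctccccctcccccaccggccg
Ptbp2: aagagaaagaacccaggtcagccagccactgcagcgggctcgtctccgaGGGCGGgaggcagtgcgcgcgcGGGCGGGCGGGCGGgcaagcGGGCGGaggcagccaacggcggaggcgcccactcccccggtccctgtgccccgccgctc
Srsf1: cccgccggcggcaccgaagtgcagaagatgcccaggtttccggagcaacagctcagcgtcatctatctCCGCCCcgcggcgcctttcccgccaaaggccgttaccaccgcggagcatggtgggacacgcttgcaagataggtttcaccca
Srsf12: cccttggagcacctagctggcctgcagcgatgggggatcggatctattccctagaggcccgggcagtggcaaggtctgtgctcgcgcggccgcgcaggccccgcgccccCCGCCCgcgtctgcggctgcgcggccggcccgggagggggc
These stretches hold 12, 19, 15 and 18 CpG dinucleotides. Relative to base composition over the whole promoter, the observed to expected ratio was 0.902 for Ptbp1, 0.861 for Ptbp2, 0.877 for Srsf1 and 0.730 for Srsf12. A run of GC boxes is seen in Ptbp2.

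Other parts of the splicing machinery were counted in the same way. The kinases that phosphorylate SR proteins (SRPK and CLK families) had 1 of 6 tested members called higher, Srpk1 (0.40 ± 0.07, adjusted p = 0.00338), and 0 lower. SR-related proteins had 3 of 12 (25%) higher and 1 lower, against 22.6% and 22.8% of all genes. The largest rise was that of Srrm3, a neuronal regulator of microexons, from 0.337 ± 0.175 to 1.18 ± 0.0503 TPM (1.69 ± 0.36, adjusted p = 0.00922). Luc7l3 (0.52 ± 0.07) and Pnn (0.32 ± 0.06) were also higher, and Luc7l2, a partner of the U1 particle, was lower (-0.25 ± 0.06).

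The core spliceosome had 10 of 57 genes higher (17.5%) and 10 lower, somewhat under the 22.6% and 22.8% of all genes. Its median log2 fold change was 0.03, and 0 genes had a called change above 1. This limit was passed by 20.2% of all genes, but by 5.68% of those with a mean of at least 100 TPM, the level of most core genes. The largest falls in the core spliceosome were those of Cdc5l, of the Prp19 complex (-0.86 ± 0.08), Snrnp200, the helicase that unwinds U4/U6 (-0.66 ± 0.13), and Sf3b1, which holds the branch site (-0.52 ± 0.09). Its largest rises were those of Lsm6 (0.58 ± 0.07), Aqr (0.48 ± 0.09) and Lsm7 (0.36 ± 0.08). The 33 other splicing regulators, outside the families described, had 15 (45.5%) higher, 3 lower and a median of 0.17, against 22.6% and 22.8% of all genes. They were led by Elavl3 (2.21 ± 0.19), which is also one of the neural markers above, Msi1 (1.21 ± 0.26) and Rbm4b (0.86 ± 0.11). The 3 that were lower were Rbm47, an epithelial regulator (-0.38 ± 0.12), Qk (-0.30 ± 0.07) and Rbm39 (-0.22 ± 0.06).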

How the data were processed

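RNA-seq libraries of WT ESCs and EpiLCs, 3 of each, were analysed. The authors trimmed reads with cutadapt 1.16, mapped 76-base single-end stranded reads with STAR 2.5.2a and quantified genes with RSEM 1.3.0 on mm10. Per gene, the deposited values are RSEM's expected counts, unnormalized and with shared reads divided between genes, and the authors' TPM, scaled for length and library. Expected counts were rounded, filtered with filterByExpr (14468 of 24736 genes), normalized by TMM and compared in edgeR 4.0.16 (R 4.3.3) by its quasi-likelihood test, without a replicate block. Benjamini-Hochberg adjustment ran over all genes tested. The SE is the log2 fold change divided by the root of the F statistic.

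Every member is accounted for. Values in each library are given for the Esrp, Mbnl, Rbfox, Celf, Ptbp, Nova and Khdrbs genes, and among Srsf and Hnrnp genes for those called above 1, up to 5 called rises in each group and the highest mean level in each group over the 6 libraries. Of other lists, at most 3 rises and 3 falls are named. Members and lists were chosen with earlier results of these data known. Alternatives were a count filter of 10 in each library, none at all, upper-quartile factors, DESeq2 1.42.0, a block for the replicate number, each library left out in turn, and limma 3.58.1 on log2 TPM with pseudocounts of 0.1 and 1.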

Additional observations from a re-analysis of the deposited data

How the results depend on the processing

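The count of members higher in EpiLCs was 22 to 31 under the settings that kept all libraries (28 with DESeq2, 31 with limma on either TPM scale) and 18 to 23 with a library left out, against 25. The count lower, 1, was 3 with DESeq2, 0 with the filter of 10 counts, with no filter, with upper-quartile normalization, with limma on log2 TPM with a pseudocount of 0.1 (0) or 1 (0) and with the replicate block, and 0 to 4 with a library left out (4 without ESC replicate 2), and where it was 0 the member lost was Ptbp3. The count above 1 on the log2 scale, 6, was 3 with the filter of 10 counts, which removes Celf3, Rbfox1 and Rbfox3, and 3 with limma and a pseudocount of 1, which shrinks changes of low genes, and 4 to 6 with a library left out (4 without ESC replicate 3 or EpiLC replicate 2). The genes called, 6571, numbered 4244 to 7181 with a library left out, the fewest without EpiLC replicate 1. The median of the members was 0.18 to 0.24 under all settings, while that of all genes was -0.0177 to 0.0574.

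Deviations of same-numbered libraries from their group means correlated at 0.0067, 0.186 and 0.171, and ESC replicate 1 correlated best with EpiLC replicate 3 (0.0836), so the numbers were not taken to pair libraries. With the replicate block, 23 members were higher, including 22 of the 25, and Hnrnpab, Hnrnpdl and Srsf9 were lost and Hnrnpa1 gained. The directions of 6 uncalled members turned: Hnrnpr with DESeq2 (-0.0069) and with the block (-0.00016), Hnrnpf with limma at pseudocounts of 0.1 (0.0198) and 1 (0.0198), and, with a library left out, Hnrnpr (-0.0351 to 0.0661), Hnrnpf (-0.0654 to 0.0112), Srsf5 (-0.14 to 0.0137), Hnrnpul2 (-0.12 to 0.0031), Hnrnpa1l2-ps2 (-0.0421 to 0.23) and Mbnl1 (-1.21 to 0.19). The cause was not tested. From counts not scaled for length, the mean share of Rbfox3 was 0.664% in ESCs and 3.29% in EpiLCs, and that of Khdrbs3 9.52% and 13.2%. Depth limits Celf3, Rbfox1, Celf6 and Khdrbs2, with under 20 counts in each ESC library.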

Other observations

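The expected count divided by TPM gives the mean transcript length that RSEM assigned to a gene, on a relative scale, and was examined after the data were seen. For the 42 members with at least 5 TPM and 100 counts in every library, this length changed from ESC to EpiLC by -0.017 to 0.031 on the log2 scale, and 0 members changed by more than 0.1 with separate groups. Of 8731 genes, 48 (0.550%) did so. Values per gene do not show which exons were used, so neither the isoforms of the members nor the exons they regulate were measured here.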
